A study of Mus musculus with 435 samples.

Results

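Signalling between the somatic cells of the fetal mouse testis was examined through 9 genes of the platelet-derived growth factor (PDGF), vascular endothelial growth factor (VEGF) and CXCL12 pathways. They were taken by name from the 16459 genes measured and divide into 5 ligands (Pdgfa, Pdgfb, Pdgfc, Vegfa and Cxcl12) and 4 receptors (Pdgfra, Pdgfrb, Nrp1 and Nrp2). All 9 were present and passed the filter on low values. Single cells came from XY gonads of mice on a mixed background that carried the transgene NR5A1-eGFP, at 5 embryonic stages from E10.5 to E16.5 (days of gestation). All groups share that reporter and there is no untreated or wild-type group. The reporter marks cells that express Nr5a1, a transcription factor of gonadal somatic precursors and steroid-producing cells, so cells without Nr5a1 were selected against by the sort for green, living cells. Of 435 labelled cells, 400 were analysed and 396 kept: 59 of E10.5, 52 and 41 of E11.5, 30 and 37 of E12.5, 56 and 56 of E13.5, and 31 and 34 of E16.5, one number per capture.

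PDGF ligands are secreted dimers that bind receptor tyrosine kinases: PDGF-A and PDGF-C act mainly through PDGFRA, the product of Pdgfra, and PDGF-B acts through both PDGFRA and PDGFRB. In the fetal testis, cells inside the cords (Sertoli cells, which surround the germ cells) signal to cells between the cords (the interstitium) in this way, and mice without Pdgfra have disordered cords and few fetal Leydig cells. VEGF-A acts on endothelial cells through the tyrosine kinase receptors Kdr and Flt1, with the neuropilins Nrp1 and Nrp2 as co-receptors that also bind class 3 semaphorins, and CXCL12 is a chemokine that guides migrating cells, germ cells included, through Cxcr4.

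The 9 chip captures, 1 at E10.5 and 2 at each later stage, served as replicates. The labels do not say that the captures of a stage came from separate litters, so p-values measure the spread between captures, which may be technical. The sequencing run also differed between stages: E10.5 and E13.5 were labelled with 25 M reads per cell and the other stages with 10 M. The depth implied by the values had a median per capture of 7.84 to 8.06 M reads in the deeper run and 2.20 to 3.24 M in the other. Levels are given as RPKM, reads scaled for transcript length and for the depth of the cell, so that levels of different genes can be compared. A cell was counted as having a gene at 1 RPKM or more. For these genes that value stood for 8.45 (Pdgfa) to 32.1 (Nrp2) reads in the median cell of the shallower run, and for 24.8 to 93.98 reads in that of the deeper run. Nr5a1, the gene of the reporter, was present in 55.9% of the E10.5 cells and in 70% to 94.1% of the cells of each later capture.

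Cells of E12.5, E13.5 and E16.5 were divided by markers, none of which is among the 9 genes. Cells called Sertoli-marker here carried at least 3 of 11 Sertoli markers (such as Amh, Dhh and Ptgds) at 10 RPKM or more, and more of these than of 11 stromal markers. Cells called stromal-marker (such as Tcf21 and Nr2f2) met the converse rule. Cells with 3 or more Leydig, endothelial or germ cell markers were put in neither class. This gave 74 Sertoli-marker cells with a median of 8 own markers and 150 stromal-marker cells with a median of 6. Sertoli-marker cells had a median of 6144 detected genes and an implied depth of 3.70 M reads, against 5484 genes and 4.45 M reads in stromal-marker cells. Their part in the differences described here was not tested.

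Before the values, the starts of 4 of the 5 genes that differed between these classes are shown, since Pdgfa was higher in one class and Pdgfra, Nrp1 and Cxcl12 in the other. RefSeq start windows (250 bases before to 50 after the start, build GRCm38.p6) were found by symbol for 7 of the 9 genes. For Pdgfa the more upstream of 2 annotated starts is printed. Each is written 5′ to 3′ on the gene's own strand, and capitals mark every match to any of 6 short motifs searched on both strands.
Pdgfa (chr5:138994895-138995194, strand -): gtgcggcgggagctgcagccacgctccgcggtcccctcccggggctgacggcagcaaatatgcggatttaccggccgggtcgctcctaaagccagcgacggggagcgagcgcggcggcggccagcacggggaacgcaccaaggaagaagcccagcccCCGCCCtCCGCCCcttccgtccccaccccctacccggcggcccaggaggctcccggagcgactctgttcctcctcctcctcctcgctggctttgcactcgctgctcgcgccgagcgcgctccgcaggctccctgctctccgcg
Pdgfra (chr5:75152001-75152300, strand +): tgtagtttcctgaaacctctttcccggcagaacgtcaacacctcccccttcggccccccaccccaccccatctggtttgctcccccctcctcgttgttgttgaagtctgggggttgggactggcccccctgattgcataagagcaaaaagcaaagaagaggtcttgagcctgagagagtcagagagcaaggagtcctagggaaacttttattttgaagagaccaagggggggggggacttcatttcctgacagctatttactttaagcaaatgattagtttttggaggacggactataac
Nrp1 (chr8:128358823-128359122, strand +): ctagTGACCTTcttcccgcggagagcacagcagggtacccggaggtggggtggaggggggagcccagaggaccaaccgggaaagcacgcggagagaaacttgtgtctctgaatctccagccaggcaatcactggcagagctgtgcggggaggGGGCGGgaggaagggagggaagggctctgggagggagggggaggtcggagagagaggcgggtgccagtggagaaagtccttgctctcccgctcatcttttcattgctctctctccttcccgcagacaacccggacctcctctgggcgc
Cxcl12 (chr6:117168285-117168584, strand +): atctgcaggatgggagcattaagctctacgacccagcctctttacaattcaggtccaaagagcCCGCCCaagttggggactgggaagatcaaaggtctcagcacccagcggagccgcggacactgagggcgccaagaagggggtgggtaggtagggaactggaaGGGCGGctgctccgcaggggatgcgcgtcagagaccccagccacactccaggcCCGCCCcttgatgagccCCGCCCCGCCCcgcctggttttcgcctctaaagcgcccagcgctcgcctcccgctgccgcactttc
The GC box was searched as GGGCGG and is found in 35.9% of 32544 mouse windows of the same length. The SOX motif AACAAT is found in 10.6% of them, the NR5A1 motif AAGGTCA in 4.71%, the E-box CAGCTG in 16.4%, the hypoxia core ACGTG in 19.7% and the GATA motif AGATAA in 11.2%. The Pdgfa window held 2 GC boxes and the Cxcl12 window 5, of which the last 2 share a base. The Nrp1 window held 1 GC box and 1 NR5A1 motif, which lies on the opposite strand near the start of the window. None of the 6 motifs was found in the Pdgfra window, which at 51% G and C was also the least GC-rich of the 4, against 73.3% for Pdgfa, 64% for Nrp1, 64.7% for Cxcl12 and a median of 53% over all windows. A match is a run of letters and not evidence of a bound site.

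Over all captures Pdgfra was the most abundant of the 9 genes, at 47.3 ± 17.8 RPKM (SD, n = 9 captures), and 248 of 396 cells had it. Cxcl12 came next at 31.7 ± 19.2 RPKM and 229 cells, followed by Pdgfrb at 21.8 ± 15.01 RPKM, Nrp1 at 16.6 ± 11.01 RPKM, Pdgfa at 16.3 ± 16.8 RPKM and Pdgfc at 13.7 ± 11.8 RPKM. Vegfa followed at 4.42 ± 3.08 RPKM, although 153 cells had it, close to the 156 with Pdgfrb and the 164 with Pdgfa. Pdgfb at 1.31 ± 0.93 RPKM and Nrp2 at 0.95 ± 0.73 RPKM were the scarcest and were found in 15 and 43 cells. Only Vegfa and Pdgfb, among neighbours in this order, differed by more than the larger of their SDs. Mean RPKM placed Pdgfra above 92.8% of all genes measured and Nrp2 above 30.3%. The median cell had 3 of the 9 genes, and 9 cells had none.

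**Figure D1:**
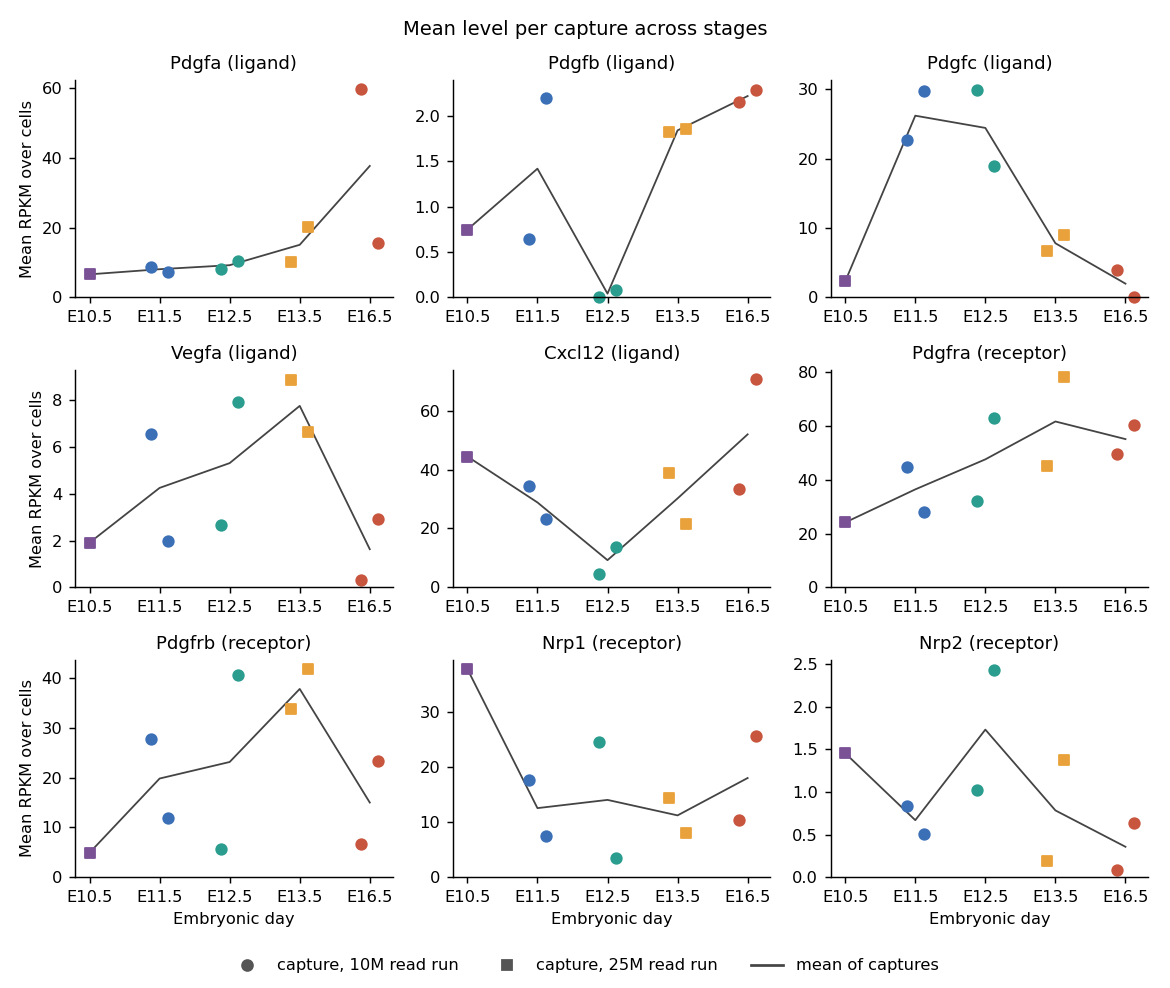
Mean RPKM over the cells of each capture (vertical axis, linear, from 0) against embryonic day for the 9 genes; circles are captures of the 10 M read run, squares of the 25 M read run, and the line joins the means of the captures of a stage. Pdgfc is highest at E11.5 and E12.5 (18.99 to 29.9 RPKM), Cxcl12 is lowest at E12.5 (4.67 and 13.8 RPKM), and 1 E16.5 capture of Pdgfa stands at 59.6 RPKM.

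The comparison of Sertoli-marker with stromal-marker cells asked which compartment holds each ligand and receptor. One ligand, Pdgfa, was higher in Sertoli-marker cells, and both PDGF receptors, the co-receptor Nrp1 and the chemokine Cxcl12 were lower there. These 5 of the 9 genes were called at an adjusted p under 0.05 by limma fitted over 12086 genes with the capture as a block, where 7.71% of all genes were called, 3.32% higher and 4.39% lower. The median log2 difference of the 9 genes was -1.67, against -0.17 for all genes tested. All 6 captures of these stages entered the fit, each with both classes.

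Pdgfa (chr5:138976014-138997370, minus strand, GRCm38) averaged 33.9 and 18.6 RPKM in Sertoli-marker cells of the E12.5 captures, 20.4 and 65.2 RPKM at E13.5 and 97.8 and 25.2 RPKM at E16.5. In stromal-marker cells of the same captures it averaged 3.29 and 8.71, 5.14 and 10.4, and 7.27 and 8.67 RPKM. Every Sertoli-marker mean lay above every stromal-marker mean, and the log2 difference was 2.23 ± 0.45 (SE, adjusted p = 0.00868, limma). Within each of the 6 captures Sertoli-marker cells were the higher, as for 5.47% of all genes. The first E12.5 mean of 33.9 RPKM came from 5 cells, with a median of 0.44 RPKM and a highest cell of 149.5 RPKM. That of the first E13.5 capture came from 20 cells, with a median of 1.06 RPKM and a highest cell of 210.8 RPKM. Of Sertoli-marker cells, 57 of 74 had Pdgfa, against 45 of 150 stromal-marker cells. The share of Sertoli-marker cells with it was 7 of 11 at E12.5, 20 of 30 at E13.5 and 30 of 33 at E16.5. Captures of a stage differed: 2 of 5 and 5 of 6 at E12.5, 10 of 20 and 10 of 10 at E13.5, and 18 of 18 and 12 of 15 at E16.5. The change in the level of Pdgfa from E12.5 to E16.5 within Sertoli-marker cells was not called (log2 difference 0.96, 95% interval -1.08 to 3.002, adjusted p = 0.753, limma).

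Pdgfra (chr5:75152292-75198215, plus strand), the receptor of that ligand, went the other way. In Sertoli-marker cells it averaged 4.12 and 37.5 RPKM (E12.5), 9.53 and 4.11 RPKM (E13.5) and 2.49 and 30.02 RPKM (E16.5), against 40.4 and 73.01, 74.9 and 98.5, and 125 and 94.4 RPKM in stromal-marker cells. No Sertoli-marker value reached the lowest stromal-marker value, although the second captures of E12.5 and E16.5 came near it. In the second E16.5 capture 3 of 15 Sertoli-marker cells had Pdgfra, with a median of 0 and a highest cell of 306 RPKM. The log2 difference was -2.98 ± 0.50 (SE, adjusted p = 0.00293, limma), and 25 of 74 Sertoli-marker cells had Pdgfra, against 127 of 150 stromal-marker cells. Between E16.5 and E12.5 within Sertoli-marker cells Pdgfra differed by -0.43 (adjusted p = 0.977, limma), a value that was 1.02 without the second E12.5 capture and 1.14 without the first E16.5 capture, and 0.0% of genes were called there, with 1133 at an unadjusted p under 0.05.

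Pdgfrb (chr18:61045150-61085061, plus strand), the receptor best known from pericytes and other mural cells, showed the largest difference of the 9 genes. Sertoli-marker cells averaged 0 and 0.649 RPKM at E12.5, 11.9 and 0.712 RPKM at E13.5, and 0.00579 and 0 RPKM at E16.5. Stromal-marker cells averaged 7.76 and 33.2, 54.04 and 53.1, and 17.4 and 46.5 RPKM. Within each capture Sertoli-marker cells were the lower, and across captures the first E13.5 value in Sertoli-marker cells passed the first E12.5 value in stromal-marker cells. The log2 difference, which depends on the pseudocount of 1 where values are 0, was -4.06 ± 0.56 (SE, adjusted p = 0.000771, limma). At E16.5 none of 33 Sertoli-marker cells had Pdgfrb, which allows a share of up to 9.09% by counting error alone, against 17 of 29 stromal-marker cells. The first E13.5 capture stood apart, with Pdgfrb in 9 of its 20 Sertoli-marker cells.

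Cxcl12 (chr6:117168535-117181367, plus strand) was the ligand with the most negative difference. It averaged 0.0135 and 5.49 RPKM in Sertoli-marker cells at E12.5, 11.4 and 1.97 RPKM at E13.5 and 0.982 and 1.55 RPKM at E16.5, against 6.35 and 16.6, 63.9 and 25.4, and 84.3 and 140 RPKM in stromal-marker cells. Within each capture the Sertoli-marker value was the lower, with a log2 difference of -3.51 ± 0.61 (SE, adjusted p = 0.00335, limma), although the first E13.5 capture in Sertoli-marker cells exceeded the first E12.5 capture in stromal-marker cells.

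Nrp1 (chr8:128358604-128503363, plus strand) was lower in Sertoli-marker cells in 6 of 6 captures, with means of 0 to 10.6 RPKM against 3.66 to 43.6 RPKM in stromal-marker cells. Those ranges overlap. The log2 difference was -2.30 ± 0.57 (SE, adjusted p = 0.0275, limma), and the call was lost without any 1 of 4 captures (the first of E12.5, the second of E13.5 and both of E16.5), where the adjusted p reached 0.0936.

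**Figure D2:**
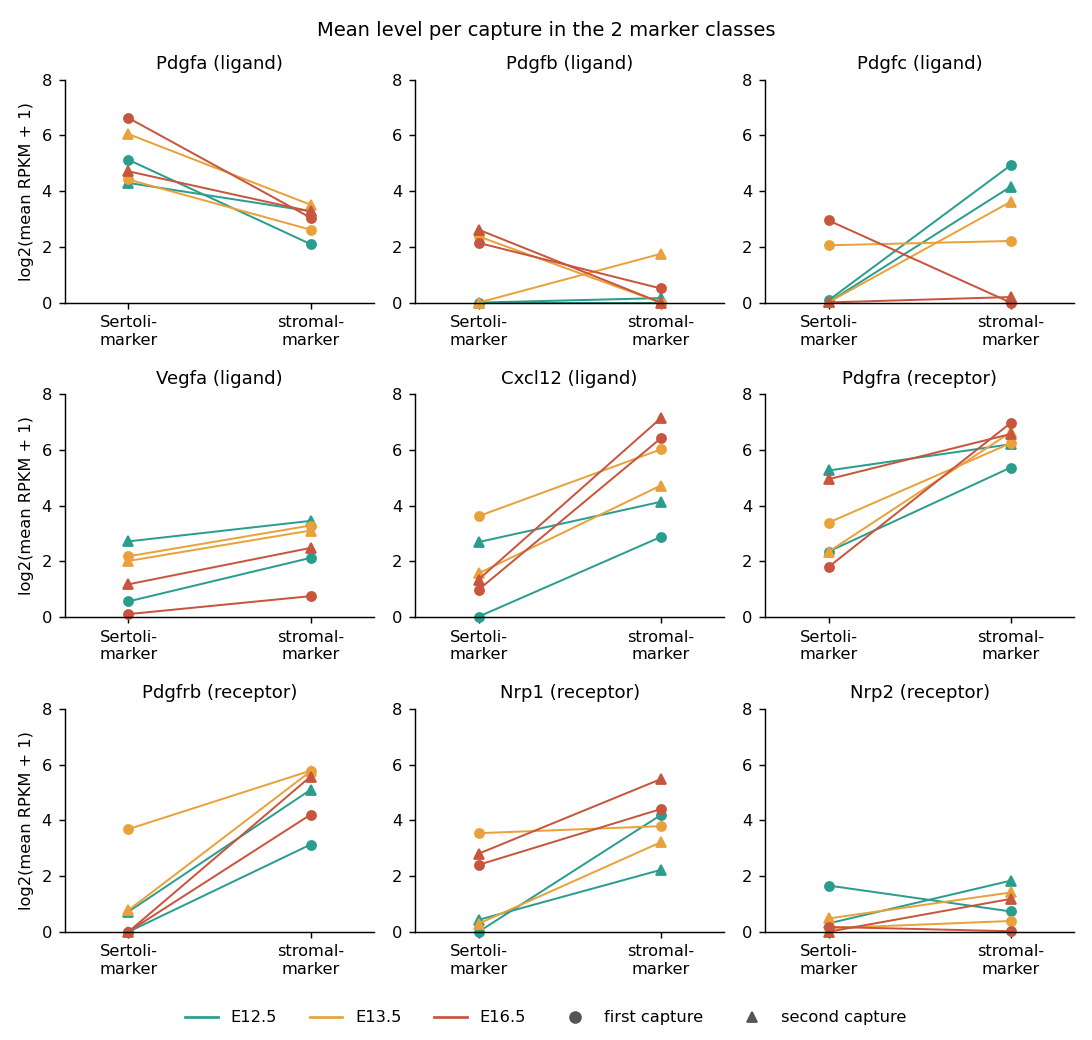
log2(mean RPKM + 1) of each gene (vertical axis) in Sertoli-marker cells on the left and stromal-marker cells on the right; each line joins the classes of 1 of 6 captures, with colour for the stage and marker shape for the capture. Pdgfa falls to the right in every capture, while Pdgfra, Pdgfrb, Cxcl12, Nrp1 and Vegfa climb in all 6.

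The other 4 genes were not called. Vegfa (chr17:46016993-46032369, minus strand), the endothelial growth factor, averaged 0.0803 to 5.60 RPKM in Sertoli-marker cells and 0.689 to 9.99 RPKM in stromal-marker cells. It was lower in Sertoli-marker cells in 6 of 6 captures, a pattern shared by 8.89% of all genes tested, but by a log2 difference of only -1.07 (95% interval -2.13 to -0.02, adjusted p = 0.207, limma). Pdgfc, the PDGF ligand secreted in latent form, had a difference of -1.67 (-3.62 to 0.29, adjusted p = 0.295, limma), with 6 of 74 Sertoli-marker cells and 37 of 150 stromal-marker cells positive. The semaphorin and VEGF co-receptor Nrp2 (chr1:62703285-62818695, plus strand) had -0.47 (-1.42 to 0.48, adjusted p = 0.573, limma). Pdgfb (chr15:79995874-80014977, minus strand) had 0.79 (-0.47 to 2.04, adjusted p = 0.454, limma), with 8 of 74 Sertoli-marker cells positive, against 3 of 150 stromal-marker cells. Intervals this wide leave differences of several fold possible.

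**Figure D3:**
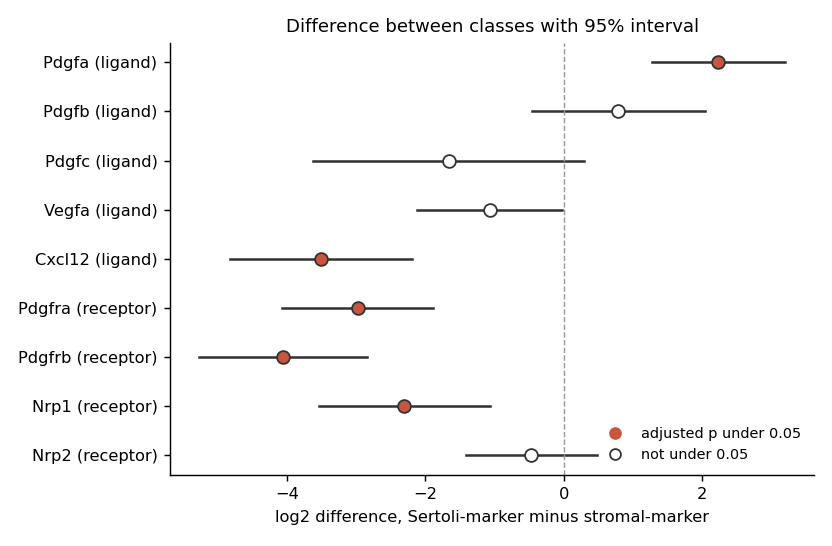
log2 difference of each gene, Sertoli-marker minus stromal-marker cells (horizontal axis), with its 95% interval as a line; filled points have an adjusted p under 0.05. Pdgfa at 2.23 is the one filled point above 0, and Cxcl12, Pdgfra, Pdgfrb and Nrp1 lie between -4.06 and -2.30.

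The classes were not clean. Among the 74 Sertoli-marker cells, 21 also carried 3 or more stromal markers and 27 carried none. The mixed kind made up 13 of the 20 Sertoli-marker cells of the first E13.5 capture, taken on a medium-size chip. In the second E12.5 capture, taken on a small chip, only 2 of the 6 Sertoli-marker cells were not mixed. Pdgfra was present in 15 of the 21 mixed cells and in 3 of the 27 with no stromal marker. Cxcl12 was present in 16 and 1 of these cells, and Pdgfrb in 9 and 0. Pdgfa was present in 14 of the 21 and in 21 of the 27, with mean levels of 18.7 and 64.3 RPKM. Leaving out cells with 3 or more markers of both classes was a choice made after the data were seen. It left 5 captures, without the second of E12.5, and 8.4% of all genes were called. All 5 called differences widened, to 3.04 for Pdgfa (adjusted p = 0.00171, limma), -4.45 for Pdgfra (0.00194), -4.74 for Pdgfrb (0.000649), -3.17 for Nrp1 (0.00669) and -4.92 for Cxcl12 (0.000771). Cxcl12 and not Pdgfrb then had the largest of these. The mixed Sertoli-marker cells had Pdgfra, Pdgfrb and Cxcl12 more often, so the widening is not separate evidence. Within the 10 M read run, with 4 captures, Pdgfrb (-4.32) and Cxcl12 (-3.88) were called, as were 2.46% of all genes. Within the 25 M read run, with the 2 E13.5 captures, none of the 9 was, and 0.621% of all genes were, while all 9 differences kept their sign in both runs.

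Markers of mural cells were also read in the 2 classes, where their ranges over captures overlapped in part. The summed level of 5 smooth muscle and peritubular markers averaged 0.966 to 292 RPKM per capture in Sertoli-marker cells, with 1 marker at 0, and 13.3 to 1985 RPKM in stromal-marker cells, with none at 0. The sum of 5 pericyte markers averaged 0.239 to 7.44 RPKM in Sertoli-marker cells and 4.36 to 50.4 RPKM in stromal-marker cells, and that of 8 endothelial markers 0.0946 to 13.7 RPKM and 6.85 to 23.8 RPKM, with 2 of the 8 at 0 in both. Stromal-marker cells with a smooth muscle marker at 10 RPKM averaged 20.1, 49.7 and 28.5 RPKM of Pdgfrb at E12.5, E13.5 and E16.5. Those without one averaged 22.1, 60.3 and 57.4 RPKM. Pdgfrb was present in 9 of 14, 33 of 47 and 13 of 23 of the former. It was present in 15 of 34, 16 of 26 and 4 of 6 of the latter. The part of mural and endothelial cells in the differences was not tested.

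Ligand and receptor of the PDGF-A pair were next read in the same cells. Of 74 Sertoli-marker cells, 39 had Pdgfa without Pdgfra, 18 had both, 7 had Pdgfra alone and 10 had neither. Of 150 stromal-marker cells, 9 had Pdgfa without Pdgfra, 36 had both, 91 had Pdgfra alone and 14 had neither. Across all 396 cells, with each capture centred, Pearson's r on log2(RPKM + 1) was -0.27 between Pdgfa and Pdgfra and -0.31 between Pdgfa and Cxcl12, while it was 0.26 between Pdgfra and Pdgfrb, 0.33 between Pdgfra and Cxcl12 and 0.35 between Pdgfrb and Cxcl12. These correlations describe cells that share captures, depth and class, and no test was made of them. Vegfa and Nrp1 had an r of -0.07, and Nrp1 was found in 39.2% of the cells with Vegfa, against 44.03% of those without it. The direction varied. The share was higher with Vegfa at E10.5 (81.3% against 79.1%), E13.5 (34.5% against 27.8%) and E16.5 (45.5% against 38.9%). It was lower at E11.5 (34.4% against 44.3%) and E12.5 (30.6% against 32.3%). In Sertoli-marker cells it was 36.8% against 16.4%, and in stromal-marker cells 33.8% against 38.4%.

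**Figure D4:**
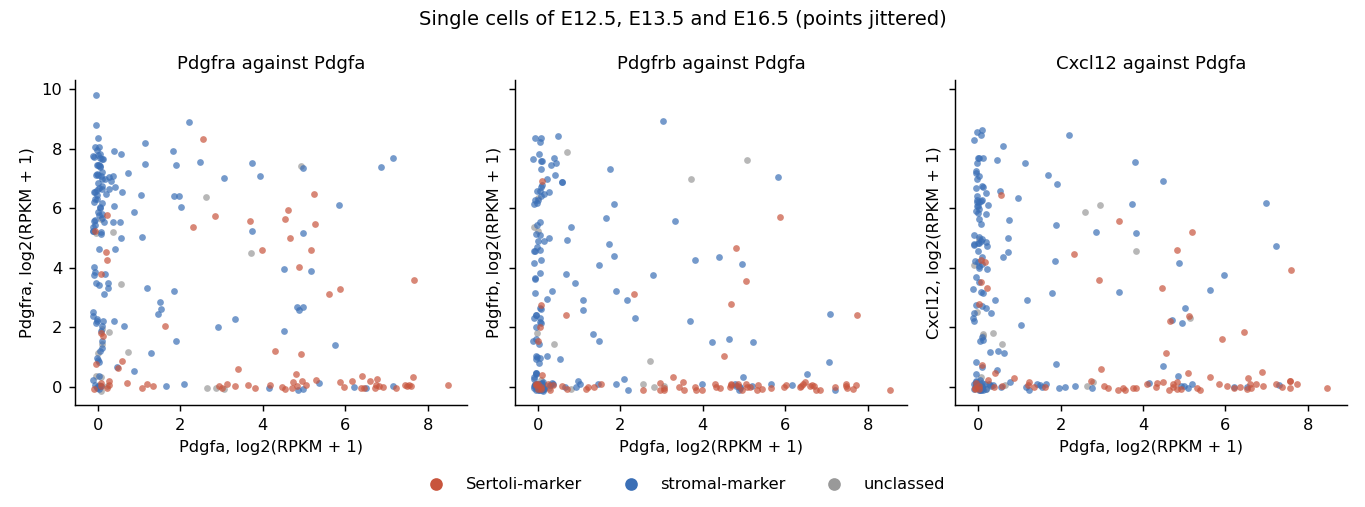
Single cells of E12.5, E13.5 and E16.5, with log2(RPKM + 1) of Pdgfa on the horizontal axis and of Pdgfra, Pdgfrb or Cxcl12 on the vertical axis, coloured by class and jittered. In the Pdgfra panel 39 of 74 Sertoli-marker cells (red) lie low on the vertical axis with Pdgfa present and 91 of 150 stromal-marker cells (blue) low on the horizontal one with Pdgfra present; 18 Sertoli-marker and 36 stromal-marker cells have both Pdgfa and Pdgfra.

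Across stages, 1 gene of the 9 was called. Pdgfc (chr3:81036416-81214040, plus strand) fell to 3.898 and 0.0761 RPKM in the E16.5 captures, against 22.7 and 29.8 RPKM in the E11.5 captures, which were sequenced in the same run (log2 difference -3.56 ± 0.69, SE, adjusted p = 0.0273, limma). In that comparison 1.52% of 12313 genes were called, 0.991% higher and 0.528% lower, and the median difference was 0.47 over the 9 genes and -0.08 over all genes. Between these stages it had 29.9 and 18.99 RPKM in the E12.5 captures and 6.67 and 8.96 RPKM in those of E13.5, while the E10.5 capture, of the deeper run, had 2.32 RPKM. The captures of E11.5 and E12.5 all stood above the other 5. The call was not kept without either E11.5 capture, either E13.5 capture or the second E16.5 capture, where the difference was -3.74, -3.37, -3.56, -3.56 and -2.46 and the adjusted p lay between 0.0700 and 0.219.

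The share of cells with Pdgfc was 18.6%, 45.2%, 38.8%, 19.6% and 4.62% over the 5 stages in order. Of 3 positive E16.5 cells, 2 were in the first capture, the higher at 78.7 RPKM, and 1 in the second at 2.52 RPKM. Against E12.5, Pdgfc at E16.5 had a log2 difference of -3.44 (95% interval -4.95 to -1.93, adjusted p = 0.0594, limma), with 0.357% of genes called, 0.252% higher and 0.106% lower. Sertoli-marker cells with Pdgfc were 0 of 11 (E12.5), 4 of 30 (E13.5) and 2 of 33 (E16.5), and stromal-marker cells 21 of 48, 15 of 73 and 1 of 29. The 0 of 11 allows a share of up to 27.3%. Within stromal-marker cells the E16.5 level differed from E12.5 by -4.45 (95% interval -6.38 to -2.51), which did not pass the adjustment over all genes (adjusted p = 0.207, limma), and 0.0% of genes did, with 1258 at an unadjusted p under 0.05.

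Pdgfc was also read in cells with coelomic epithelium markers. Such cells were not kept out of the marker classes. Of 150 stromal-marker cells, 27 had at least 1 of 6 such markers at 10 RPKM, against 3 of 74 Sertoli-marker cells. Of 18 cells with 3 or more of 6 such markers (Upk3b and others of the gonad surface), 13 had Pdgfc, at a mean of 40.3 RPKM, 13 had Pdgfa and 5 had Pdgfra. They numbered 1, 5, 4, 8 and 0 from E10.5 to E16.5. The stages differ in their number of kept cells, so these counts do not compare the stages directly. Without them the Pdgfc mean of the second E13.5 capture was 2.19 RPKM instead of 8.96, while the means of the E11.5 and E12.5 captures were 17.8 to 28.7 RPKM without them. The part of these cells in the stage difference, over all cells or within stromal-marker cells, was not tested.

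**Figure D5:**
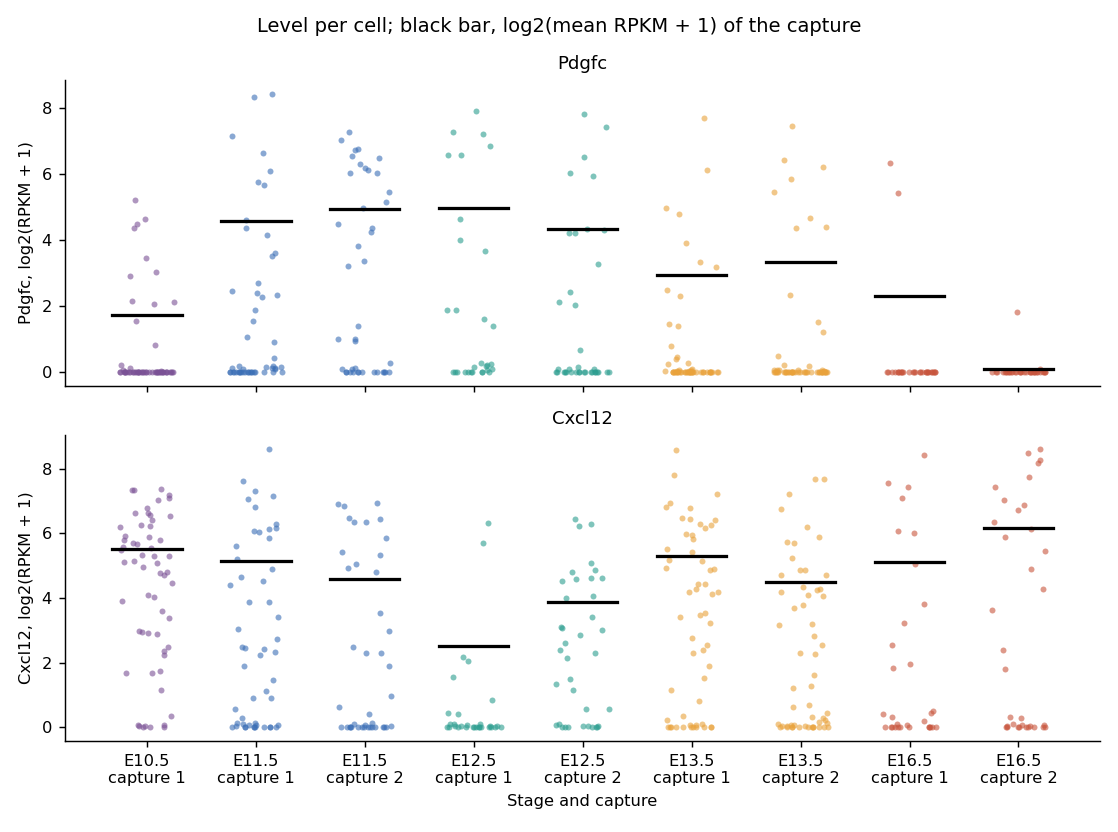
log2(RPKM + 1) of Pdgfc (top) and Cxcl12 (bottom) in every kept cell (vertical axes), by stage and capture; black bars mark log2(mean RPKM + 1) of the capture. Pdgfc is found in 42 of 93 cells at E11.5 and in 3 of 65 at E16.5, and Cxcl12 in 51 of 59 E10.5 cells, in 5 of 30 cells of the first E12.5 capture and in 24 of 37 of the second.

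Cxcl12 was lowest in the middle of the series. The E12.5 captures, at 4.67 and 13.8 RPKM, were the lowest of the 9. The E16.5 captures had 33.3 and 70.7 RPKM and the E11.5 captures 34.4 and 23.3 RPKM, all of the same run. In the deeper run the E13.5 captures had 38.8 and 21.6 RPKM and the E10.5 capture 44.4 RPKM. At E16.5 against E12.5 the log2 difference was 2.44 (95% interval 1.21 to 3.66, adjusted p = 0.092, limma), and at E12.5 against E11.5 it was -1.68 (-2.90 to -0.46, adjusted p = 0.514, limma), where 0.0% of genes were called and 961 had an unadjusted p under 0.05. Neither passed the adjustment. The share of cells with Cxcl12 did not follow the level: it was 16.7% and 64.9% in the E12.5 captures, while the E11.5 captures had 59.6% and 46.3%, and those of E16.5 had 38.7% and 52.9%. At E10.5, 51 of 59 cells had it (86.4%, Wilson 95% interval 75.5 to 92.97%).

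In stromal-marker cells alone the Cxcl12 mean was 84.3 and 140 RPKM at E16.5, against 6.35 and 16.6 RPKM at E12.5. That difference, 3.27 (1.77 to 4.76), also missed the threshold after adjustment (adjusted p = 0.209, limma). A test of whether the change from E12.5 to E16.5 differed between the classes, added after the data were seen, gave 5.87 for Pdgfc (adjusted p = 0.265) and -3.46 for Cxcl12 (adjusted p = 0.314), Sertoli-marker minus stromal-marker, with no gene called by limma (0.0%).

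The remaining genes showed no called change between stages. Pdgfa averaged 59.6 and 15.6 RPKM at E16.5, against 8.09 and 10.4 RPKM at E12.5 (log2 difference 1.64, 95% interval 0.27 to 3.02, adjusted p = 0.307, limma). The composition moved with it: Sertoli-marker cells made up 58.1% and 44.1% of the E16.5 captures and 16.7% and 16.2% of the E12.5 captures, and its part was not tested. Pdgfrb had 33.8 and 41.9 RPKM at E13.5, against 4.92 RPKM in the single E10.5 capture, within 1 run (log2 difference 2.70, 0.56 to 4.85, adjusted p = 0.351, limma), where 1.06% of genes were called, 0.958% higher and 0.106% lower. Its E12.5 value rested partly on 4 cells of the second capture that carried 3 or 4 germ cell markers beside 5 to 7 stromal and 2 or 3 Sertoli markers, and had 35.3 to 254 RPKM of Pdgfrb. Without them that capture's mean was 27.5 RPKM instead of 40.5.

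Nrp1 was highest in the single E10.5 capture, at 37.8 RPKM, where 47 of 59 cells had it (79.7%, Wilson 95% interval 67.7 to 87.96%). In the later captures it averaged 3.48 to 25.7 RPKM. The difference of E13.5 from E10.5 was -1.72 (-3.81 to 0.37, adjusted p = 0.678, limma) on mean RPKM. When the mean of log2 values over cells, or the share of cells with the gene, was compared instead, Nrp1 was called lower at E13.5 (adjusted p = 0.0199 and 0.0115, limma), as 1.93% and 2.32% of all genes were called in either direction, with the spread of the single E10.5 capture again assumed. Vegfa averaged 0.325 and 2.93 RPKM at E16.5, against 2.68 and 7.94 RPKM at E12.5 (log2 difference -1.33, adjusted p = 0.537, limma). As a share of cells, 11 of 65 at E16.5 against 36 of 67 at E12.5, it was called (adjusted p = 0.0306, limma), where 1.78% of all genes were.

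Pdgfra ranged over the captures between 24.1 RPKM (E10.5) and 78.2 RPKM (second of E13.5). Over the captures of E12.5 to E16.5 it was higher than over the 3 earlier ones by 0.74 (0.07 to 1.41, adjusted p = 0.395, limma), where 0.577% of genes were called, 0.463% higher and 0.114% lower, and none of the 9. Within either run alone 0.0% of genes were called (an unadjusted p under 0.05 was reached by 864 genes in the 10 M read run, against 1126 for the other). Over the 5 stages together limma's F test called 1.62% of genes and none of the 9, with the smallest adjusted p for Pdgfc at 0.0543.

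Pdgfb was carried by single cells. The 15 cells with it held up to 103.97 RPKM, and in every capture where it was found, its highest cell supplied 66.8% to 100% of the capture's total. Of these cells, 8 were Sertoli-marker cells, 7 of them from E16.5. Only 2 of the 15 were among the 3 cells with 3 or more of 8 endothelial markers. Those 3 cells, in captures of E11.5, E13.5 and E16.5, had 89.7, 18.1 and 0.428 RPKM of Pdgfb and 84.9, 163 and 43.1 RPKM of Nrp1, while Pdgfrb, Pdgfc, Vegfa and Nrp2 were at 0 in all 3. The E11.5 endothelial-marker cell supplied nearly all of that capture's Pdgfb, which was 0.00313 RPKM without it.

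Other marker-defined cells were few. Vegfa was present in 8 of 11 cells with 3 or more Leydig markers (steroid synthesis genes), with a median of 2.53 RPKM and a highest cell of 132 RPKM. Pdgfra was present in 8 of 9 cells with 3 or more smooth muscle and peritubular markers, all at E13.5 or E16.5. The stromal-marker class held many cells with at least 1 smooth muscle marker at 10 RPKM, 84 of 150, and Pdgfra was present in 13 of 14, 40 of 47 and 21 of 23 of these at E12.5, E13.5 and E16.5, against 27 of 34, 20 of 26 and 6 of 6 of the stromal-marker cells without one.

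The genes whose pattern over cells was most like each member were found by Pearson correlation on log2(RPKM + 1), centred within captures, over 396 cells and 9521 genes. For Pdgfa they were Ptgds (0.46), Gstm3 (0.46) and Tmem184a (0.45), and Ptgds was itself used as a Sertoli marker. For Pdgfra they were Col1a2 (0.48), Ednra (0.46) and Nr2f2 (0.44), for Pdgfrb Col1a2 (0.45), Col3a1 (0.43) and Col1a1 (0.41), and for Cxcl12 Col1a2 (0.50), Col3a1 (0.45) and Nr2f2 (0.44), of which Col3a1 and Nr2f2 were stromal markers and the collagens encode fibrillar matrix. For Pdgfc they were Podxl (0.37), a surface sialomucin, Sulf1 (0.36) and Arhgap29 (0.29). No gene reached 0.28 with Vegfa (Kcnk3, Trib2 and Dlc1), Nrp1 (Mmp14, Marcks and Vcan), Nrp2 (Cntrob, Arhgap24 and Ptpdc1) or Pdgfb (Myzap, Cystm1 and Efna1), which is weak in data this sparse.

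Partners of the 9 genes were counted from lists of the same pathways in the comparison of classes. Of 5 other PDGF ligands and processing genes, Pdgfd, another PDGFRB ligand, was lower in Sertoli-marker cells (-3.38, adjusted p = 0.00602, limma), and Sparc, a matrix protein that binds PDGF, was higher (1.02, adjusted p = 0.000351). Of 3 other VEGF family ligands tested, 2 were lower and none higher: Pgf (-2.96, adjusted p = 0.0149) and Figf, also known as Vegfd (-2.93, adjusted p = 0.0188). Of 6 class 3 semaphorins tested, which bind the neuropilins, Sema3a (-2.05, adjusted p = 0.0216) and Sema3d (-2.80, adjusted p = 0.0134) were lower and none was higher.

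Of 3 angiopoietin genes tested, Angpt1, which stabilises vessels, was lower (-1.95, adjusted p = 0.0167, limma), with no Sertoli-marker cell at 1 RPKM and 18 stromal-marker cells. Of 10 genes of PDGF receptor signalling only the adaptor Shc1 (-2.54, adjusted p = 0.00966) and of 10 oxygen-sensing genes only Adm (-2.65, adjusted p = 0.0386) were called, both lower, and 1 in 10 is near the 7.71% of all genes called. Among 3 other chemokines tested Cx3cl1 was higher (2.33, adjusted p = 0.0235). The median log2 difference was 0.09 over the PDGF list, -2.93 over the VEGF ligands, -0.82 over the semaphorins, -0.38 over PDGF receptor signalling and 0.01 over oxygen sensing, against -0.17 for all genes. Leaving out 1 capture at a time, Pdgfd, Sparc and Shc1 were called in 6 of 6 fits, Sema3d in 5 (not without the second of E16.5), Angpt1 in 5 (not without the first of E13.5) and Pgf in 4 (not without either of E16.5). Figf was called in 3 (not without either of E16.5 or the second of E13.5). Sema3a, Adm and Cx3cl1 were called in 2 each: Sema3a was lost without the first of E12.5, the second of E13.5 or either of E16.5, Adm without either of E12.5 or the second of E13.5 or E16.5, and Cx3cl1 without either of E13.5 or E16.5.

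The receptors that would complete the VEGF and CXCL12 pairs were scarce in these sorted cells. Kdr, the main VEGF receptor, was present in 11.1% of cells and Flt1 in 1.01%, and Kdr was not called between the classes (-1.63, adjusted p = 0.145, limma). Cxcr4 was present in 7.32% of cells and the scavenging receptor Ackr3 in 12.1%, and of the 229 cells with Cxcl12, 10 had Cxcr4 and 32 had Ackr3. Neither receptor was called between the classes (Ackr3 -1.92, adjusted p = 0.214, limma, though it was called without the second E12.5 capture), nor was any of 7 plexins, of which the most abundant, Plxnb2, averaged 22.6 RPKM. Over stages Sparc was the one gene of all the lists that was called: it was higher at E16.5 than at E11.5 (1.24, adjusted p = 0.0288, limma) and higher at E13.5 than at E10.5 (1.75, adjusted p = 0.0167, limma), where E10.5 is 1 capture assumed to vary like the other stages. The first call was lost without any 1 of the E11.5 or E16.5 captures (adjusted p of 0.159 to 0.258) and the second without either E11.5 capture (0.0509 and 0.0520).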

How the data were processed

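The authors deposited RPKM values per cell for 16459 genes, per the labels' protocols from single Nr5a1-eGFP cells sorted with Draq7, captured on Fluidigm C1 chips and prepared with SMARTer and Nextera XT. The submitters' processing notes name GRCm38.p3 and mm10. For the aligner, the counter and the annotation: not given in the sources used here. RPKM are not counts, so the count test named as an option in the design was not used.

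Cells with under 3000 detected genes were left out (3 cells). A pair of near-identical cells (correlation 0.998) was averaged. The other 35 labelled cells were not analysed here. RPKM were averaged per capture, or per capture and class with at least 5 cells. These means, as log2(mean + 1), entered a limma 3.58.1 fit with trended, robust variances; genes reaching 1 RPKM in 2 or more captures were tested, with Benjamini-Hochberg adjustment over all genes and a threshold of 0.05. Fold changes on this scale understate changes of low genes. E10.5 has 1 capture and was assumed to vary like the other stages. Class markers were left out of class fits. Implied depth was estimated from the commonest low value times exonic length, taken as 1 read; it is an estimate, and the deposited values hold no read totals. Scripts were tested on simulated data.

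The 9 genes, the pathway and marker lists and the tests were chosen with earlier results of these data known. Of the pathway lists, genes called in a described comparison were named, otherwise the most abundant of a list, and for each of the 9 genes the 3 others most correlated with it; Flt1 and Cxcr4 were added after their values were seen. Alternatives covered the pseudocount, the filter, the averaging, the scaling, the marker rule, the run, each capture in turn and the block. Intervals and limits on shares cover counting error only.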

Additional observations from a re-analysis of the deposited data

Results flagged for a closer look

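In 27 groups of 6 late captures (the 9 genes over all cells and in each class), 4 groups held a capture far from the others. For normally distributed values in separate groups, chance flags about 1 in 20 groups. These means include values of 0 and the groups share cells, so that rate need not hold here. The mean of Pdgfa over all cells was 59.6 RPKM in the first E16.5 capture, with the next capture at 20.1 RPKM and the lowest at 8.09 RPKM. Sertoli-marker cells made up 58.1% of the first E16.5 capture and averaged 97.8 RPKM there. In the second E16.5 capture they made up 44.1% and averaged 25.2 RPKM. Pdgfrb in Sertoli-marker cells was 11.9 RPKM in the first E13.5 capture, with the next at 0.712 RPKM, and 13 of that capture's 20 Sertoli-marker cells also carried 3 or more stromal markers. Without this capture the class difference of Pdgfrb stayed called. Pdgfb in stromal-marker cells was 2.36 RPKM in the second E13.5 capture, with the next at 0.424 RPKM, and 1 cell at 103.97 RPKM, which also carried 3 coelomic epithelium markers, held all of it. Nrp2 in Sertoli-marker cells was 2.16 RPKM in the first E12.5 capture, with the next at 0.394 RPKM, where 1 of 5 such cells had it.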

How the results depend on the processing

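Of the 5 genes called between the classes, Pdgfa, Pdgfra, Pdgfrb and Cxcl12 stayed called without each of the 6 captures. They also stayed called without the capture as a block, where 5 of the 9 were called and 8.0% of all genes. With no filter on low values 3 of the 9 were called (2.69% of all genes), namely Pdgfa, Pdgfrb and Cxcl12, while Pdgfra and Nrp1 were not. Within the 10 M read run 2 were (2.46%), and within the 25 M read run 0 (0.621%). Pdgfa was not called with at least 2 markers per class (adjusted p = 0.0631, limma), nor Nrp1 with a pseudocount of 10. At E16.5 against E11.5, Pdgfc was not called with a pseudocount of 0.1 or no filter (0 of the 9, against 1.2% and 0.164% of all genes). Without each capture 0 to 1 were called. At E16.5 against E12.5, 1 was called on the mean of log2 values (1.97% of all genes) and 2 on shares of cells (1.78%; 0 to 1 without each capture). At E13.5 against E10.5, 1 was called on either (1.93% and 2.32% of all genes). Over the 5 stages, 2 and 3 were called (4.86% and 5.23%; 0 to 1 without each capture). The cause of these moves was not tested.

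Values that changed sign were Pdgfra within Sertoli-marker cells, E16.5 against E12.5 (-2.01 to 1.14 without each capture), and Plxnb2 between the classes (-0.79 to 0.0264 without each capture). Counts of all genes called moved with the settings: 27 (no filter) to 497 (mean of log2 values) against 187 for E16.5 against E11.5, 5 to 243 against 44 for E16.5 against E12.5, 46 to 286 against 131 for E13.5 against E10.5, up to 644 against 200 over the stages, 0 to 212 against 71 for late against early, and 75 (25 M read run) to 1878 (1243 of them higher) against 932 (401 higher) between the classes. No paired analysis of stages was possible because the capture numbers do not pair captures of different stages.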
